A study of Mus musculus with 8 samples.

Results

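Hsd3b4, Sult5a1 and Mup1 are 3 genes grouped here under differentiated hepatocytes, and each was read by 1 probe on the liver arrays analysed here. Which cells of these samples expressed them was not tested. They are 3 of the 310 genes that could be named among 33012 gene probes, and they were chosen from the measured levels on these same arrays: Hsd3b4 and Sult5a1 because their signal was low in treated mice, and Mup1 because its signal was steady. Their levels are therefore given as a description, with no test. All mice were male FVB/N mice aged 3 months, and the groups were untreated wild type (WT), untreated mice lacking Abcb4 (KO), and KO mice given norUDCA for 3 days or for 4 weeks, with 2 arrays per group. Abcb4 is the transporter that carries phospholipid into bile, so bile of the KO lacks phospholipid and injures the bile ducts; norUDCA is a side-chain modified bile acid. The labels give the 4-week group 4 weeks of treatment while its file names carry 14 days, which was not settled. Nothing beyond the titles says that the replicates were separate animals, so any p-value below measures only the spread between these samples, which may be technical.

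Hsd3b4 belongs to the family of 3-beta-hydroxysteroid dehydrogenases, and its enzyme is known to reduce 3-ketosteroids rather than to make steroid hormones. Sult5a1 belongs to the cytosolic sulfotransferases, enzymes that add sulfate to small molecules such as steroids, bile acids and drugs. Mup1 codes for a major urinary protein, a lipocalin that male mouse liver secretes in large amounts under the control of growth hormone pulses, and that carries pheromones into urine. Whether these 3 probes mark the differentiated state of the hepatocyte was not tested. In a bulk liver sample, fewer hepatocytes and less RNA per hepatocyte cannot be told apart.

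The reference holds promoter sequence for 2 of the 3 genes, Hsd3b4 (2 entries, for 2 start sites) and Sult5a1 (1 entry), taken from RefSeq on build GRCm38.p6. The 250 bases before the start are shown for the pair whose signal was lower in the KO groups, to let their sequence be compared. For Hsd3b4 the entry with the more upstream start is shown. Capitals mark the letters of an HNF1 core motif, GTTAAT, here on the opposite strand as ATTAAC.
Hsd3b4, chr3:98510568-98510817, minus strand: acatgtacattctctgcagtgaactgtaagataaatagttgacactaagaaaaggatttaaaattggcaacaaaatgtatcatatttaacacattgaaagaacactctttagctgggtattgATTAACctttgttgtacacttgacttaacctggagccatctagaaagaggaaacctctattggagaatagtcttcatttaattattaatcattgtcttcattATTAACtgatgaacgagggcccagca
Sult5a1, chr8:123158281-123158530, minus strand: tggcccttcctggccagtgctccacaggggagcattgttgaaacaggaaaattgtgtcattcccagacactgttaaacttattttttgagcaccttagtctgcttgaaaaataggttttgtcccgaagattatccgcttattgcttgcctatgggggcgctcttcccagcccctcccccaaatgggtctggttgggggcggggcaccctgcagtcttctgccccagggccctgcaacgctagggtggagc

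Each promoter window of 300 bases, which adds the 50 bases after the start, was searched on both strands for 5 motifs of hepatocyte or core promoter factors. The HNF1 core motif GTTAAT, a motif added after the sequences had been read, was found at 2 places in the Hsd3b4 window shown, beginning 128 and 26 bases before the start, and at no place in that of Sult5a1. It occurs in 7.1% of the 32851 promoter windows of this length in the reference. That share cannot weigh the match of a motif added in this way. The STAT motif TTCNNNGAA (8.3% of windows), the nuclear receptor core motif AGGTCA (16.3%) and the C/EBP motif TTGCNNAA (10.8%) were not found in the windows of either gene. The TATA letters TATAAA (13.6% of windows) were found only with the second Hsd3b4 start, where matches on both strands overlap each other from 26 bases after that start. A match of letters does not show binding, and its absence from a window says nothing about the factor. The base composition of the windows differed, with 33.7% G and C in the first Hsd3b4 window and 54.7% in that of Sult5a1.

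The arrays were hybridised with digoxigenin-labelled cDNA primed with oligo(dT) from liver total RNA. Gene probes with a signal over noise of 3 or more, called detected below, made up 33.3% to 47.9% of gene probes per array, and log2 signals of replicates correlated at 0.935 in WT and 0.963 to 0.976 in the other groups. The WT arrays were dimmer as a whole: the 75th percentile of their raw signal was 397 and 644, against 945 to 1512 on the other 6 arrays. How the arrays were run and the genotype cannot be told apart in comparisons with WT, so raw and normalized values are both given. Of 16 hepatocyte markers listed, 0 had a named probe, so the labelled tissue was not checked against them, and none of the named probes stands for Abcb4, so the genotype was not checked either. Normalized values below are log2 signals after quantile normalization over 28859 gene probes, and 16728 of these, detected on at least 2 arrays, were tested.

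Hsd3b4 was bright in WT and was at or near the noise in treated mice, as the choice of the gene implies. Its normalized log2 signal was 15.54 and 15.11 in WT, 14.28 and 11.23 in KO, 6.01 and 8.67 after 3 days, and 5.62 and 6.17 after 4 weeks. The groups were ordered WT, KO, 3 days, 4 weeks, with no overlap between neighbours except between the 2 treated groups, where most spots were not detected. Raw signal was 19709 and 26405 in WT and 26023 and 2418 in KO. After treatment it was 52.7 and 386 at 3 days and 57.0 and 75.8 at 4 weeks. In raw signal the first KO array was thus as bright as the WT arrays, while the second KO array lay between them and the treated arrays.

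The signal of Hsd3b4 stood 127 and 129 times above the spot noise on the WT arrays and 144 and 30.6 times on the KO arrays. After 3 days 1 of the 2 arrays detected it, at 7.32 times the noise, and after 4 weeks 0 of the 2 did, at 1.81 and 0.57. On the first 3-day array and the second 4-week array the file lists the spot noise itself as the signal, so values below that level have no order. In rank, the probe was the 629th and 800th brightest of 28859 on the WT arrays and the 1260th and 5199th on the KO arrays. The only treated array that detected it placed it 11086th.

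**Figure D1:**
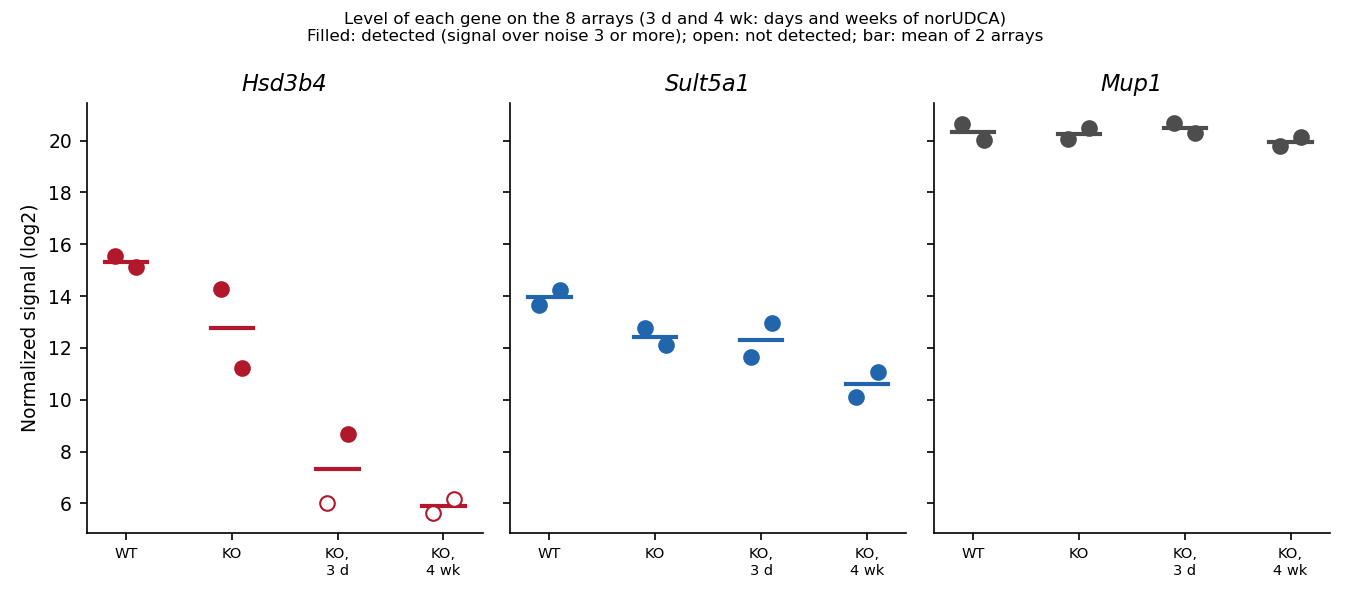
Normalized log2 signal of Hsd3b4, Sult5a1 and Mup1 (vertical axis) on each of the 8 arrays (points) in the 4 groups (horizontal axis); bars are means of 2 arrays and open points are arrays that did not detect the probe. Hsd3b4 goes from a mean of 15.33 in WT to values that were not detected after 4 weeks, Sult5a1 from 13.95 to 10.60, and Mup1 lies between 19.79 and 20.68 under quantile normalization; levels of different probes cannot be set against each other.

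In group means, Hsd3b4 lay at 15.33 ± 0.30 (SD, n = 2) in WT and 12.76 ± 2.15 (SD, n = 2) in KO, a difference of -2.57 log2 (5.93-fold lower). The KO arrays were 8.26-fold apart, which makes the KO level the least certain of its 4 levels along with that after 3 days, where the arrays were 6.32-fold apart. Without the first KO array the difference was -4.11 log2, and without the second it was -1.04. Across tested probes, both KO arrays lay below both WT arrays for 20.4%, a share that was 8.11% under median scaling and 8.28% in the deposited assay-normalized signal. Of the 3 genes this held for Hsd3b4 and Sult5a1, and under median scaling for Hsd3b4 and Mup1. In the deposited assay-normalized signal it held for all 3. In raw signal the KO and WT arrays of Hsd3b4 overlapped.

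After 3 days of norUDCA Hsd3b4 lay at 7.34 ± 1.88 (SD, n = 2), -5.42 log2 from the KO and -7.99 from WT, on a group in which only 1 array measured it. After 4 weeks it lay at 5.89 ± 0.39 (SD, n = 2), where neither array measured it. Taking the undetected spots at their listed signal, the 4-week signal was 691-fold below WT and 116-fold below KO, which are not limits. Setting those spots at 3 times their noise gives bounds of at least 332-fold and at least 56.0-fold. These bounds refer to group means, and the KO mean combines 2 arrays that were 8.26-fold apart.

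Those differences were read against how often treated arrays lie below on these arrays. Both 3-day arrays lay below both KO arrays for 28% of tested probes, and both 4-week arrays lay below both KO arrays for 21.6% (14.2% under median scaling and 13.3% in the deposited assay-normalized signal). Hsd3b4 did so in both comparisons and Sult5a1 only at 4 weeks. The comparisons with KO share the 2 KO arrays, so the 2 results are not independent of each other. Between the treated groups Hsd3b4 differed by -1.44 log2 (4 weeks minus 3 days) and the arrays overlapped.

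Sult5a1 was detected on all 8 arrays, at 20.9 to 87.9 times the spot noise. Its normalized log2 signal was 13.66 and 14.25 in WT, 12.78 and 12.09 in KO, 11.65 and 12.97 after 3 days, and 10.12 and 11.07 after 4 weeks. The WT arrays were highest and the 4-week arrays lowest, each apart from the other groups, while the KO and 3-day arrays overlapped. In raw signal the values were 5159 and 14000 in WT and 9540 and 4452 in KO. At 3 days they were 3695 and 7858, and at 4 weeks 1717 and 3125. Before normalization, then, the first WT array lay among the KO and 3-day arrays, and only the 4-week arrays lay below all others.

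The group means of Sult5a1 were 13.95 ± 0.42 (SD, n = 2) in WT, 12.44 ± 0.48 in KO, 12.31 ± 0.93 at 3 days and 10.60 ± 0.67 at 4 weeks. Against WT the KO was 2.86-fold lower, the 3-day group 3.12-fold lower and the 4-week group 10.2-fold lower. The 4-week group was also 3.58-fold below the KO and 3.27-fold below the 3-day group, with no overlap in either case. The 3-day group differed from the KO by -0.13 log2, less than the gap of 1.32 log2 between its own arrays, and this difference was 0.53 without the first 3-day array and -0.79 without the second. Its range over the arrays was 17.5-fold, and 2.25% of tested probes had a wider one. With arrays scaled to the same median, the KO and 3-day differences from WT were -1.01 and -1.06 log2 and both groups overlapped WT, while the 4-week difference of -2.68 did not overlap.

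Both 3-day arrays lay below both WT arrays for 25.7% of tested probes, and both 4-week arrays did so for 22.1%. Under median scaling the shares were 8.96% and 7.51%, and in the deposited assay-normalized signal 9.80% and 7.44%. Under quantile normalization Hsd3b4 and Sult5a1 did so in both comparisons and Mup1 in neither. All 6 KO arrays, treated and untreated, lay below both WT arrays for 10.4% of tested probes, again with Hsd3b4 and Sult5a1 among them. These 3 comparisons share the WT arrays.

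After quantile normalization Mup1 lay at nearly the same level on every array, although other scalings moved its differences from WT, as given below. Its normalized log2 signal was 20.63 and 20.04 in WT, 20.07 and 20.48 in KO, 20.68 and 20.31 after 3 days, and 19.79 and 20.13 after 4 weeks. All groups overlapped WT and KO, and only the 3-day and 4-week arrays lay apart, by a mean of -0.54 log2 (4 weeks minus 3 days). Raw signal was 1268410 and 997674 in WT, 1265241 and 1294255 in KO, 1897225 and 1286129 after 3 days, and 1283710 and 1394000 after 4 weeks. The first 3-day array was the highest and the second WT array the lowest, and the other 6 lay close together.

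The Mup1 means were 20.34 ± 0.42 (SD, n = 2) in WT, 20.27 ± 0.29 in KO, 20.50 ± 0.26 at 3 days and 19.96 ± 0.24 at 4 weeks. Differences from WT were -0.06 log2 in KO, 0.16 after 3 days and -0.37 after 4 weeks, and those from KO were 0.22 and -0.31. The order was 3 days, WT, KO, 4 weeks, and each pair of neighbours overlapped. The arrays spanned 1.86-fold in normalized and 1.90-fold in raw signal. Of all tested probes 70.2% had a wider normalized range, and the median range was 1.42 log2 against 0.89 for Mup1.

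The steadiness of Mup1 was measured at the bright end of the arrays. It was the 4th to 22nd brightest of 28859 normalized probes, and its signal was 50.9% to 77.6% of that of the brightest probe. The signal of Mup1 over its spot noise was lowest on the WT arrays, at 16.7 and 10.4. On the KO arrays, treated and untreated, it was 21.2 to 99.7. Quantile normalization gives equal ranks equal values, which left between 0.36 and 1.25 log2 above Mup1 on each array. On the first 3-day array the spot carried a flag of value 4, which occurred only on spots with a signal of 799327 or more; what that flag stands for was not given in the sources used here. Of the 79 probes among the 50 brightest on any array, 19 had a range as narrow as that of Mup1 or narrower, and the median range of the 79 was 1.36 log2. Whether the reading was limited at this brightness was not tested.

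**Figure D2:**
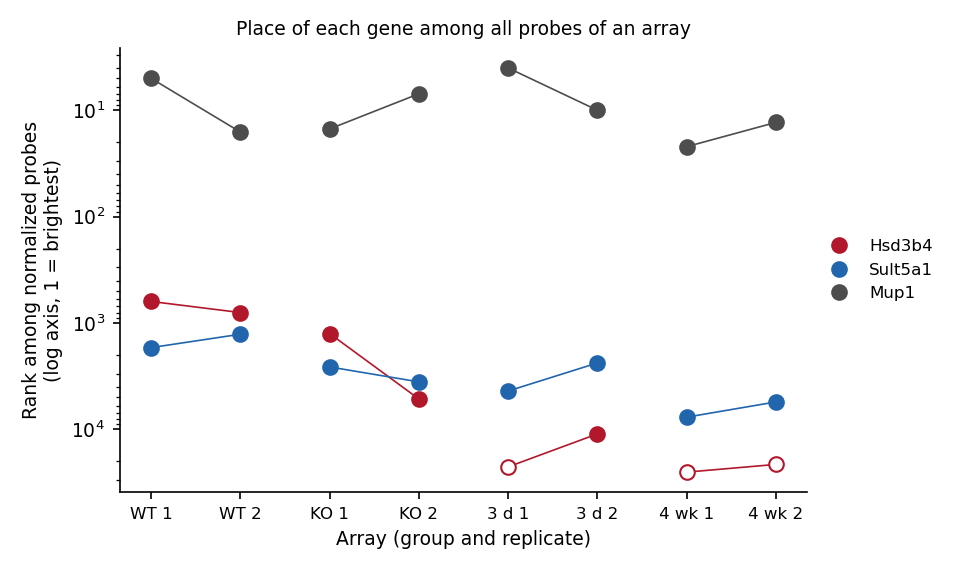
Rank of each gene among 28859 normalized probes (vertical log axis, 1 is the brightest) on each array (horizontal axis); lines join the 2 arrays of a group and open points were not detected. Mup1 stays between ranks 4 and 22, while Hsd3b4 goes from 629 on the first WT array to 5199 on the second KO array and was detected on 1 of the 4 treated arrays; ranks of open points are not measured levels.

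The level of Mup1 against WT depended on how arrays were scaled. Under cyclic loess the KO and the 4-week group were -0.69 and -0.95 log2 from WT, under median scaling -0.45 and -0.55, and in the deposited assay-normalized signal -0.59 and -0.58. In each of these 3 scalings both arrays of these groups lay below both WT arrays, whereas under quantile normalization they overlapped. In raw signal, before any scaling, the same differences were 0.19 and 0.25. The 3-day group overlapped WT under all 4 scalings, with differences from -0.28 to 0.16. The difference between the 4-week group and the KO was -0.31 log2 under quantile normalization and 0.01 in the deposited assay-normalized signal. Over these 4 scalings the Mup1 differences from WT ran from -0.95 to 0.16 log2, and those of Hsd3b4 from -10.01 to -2.16.

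**Figure D3:**
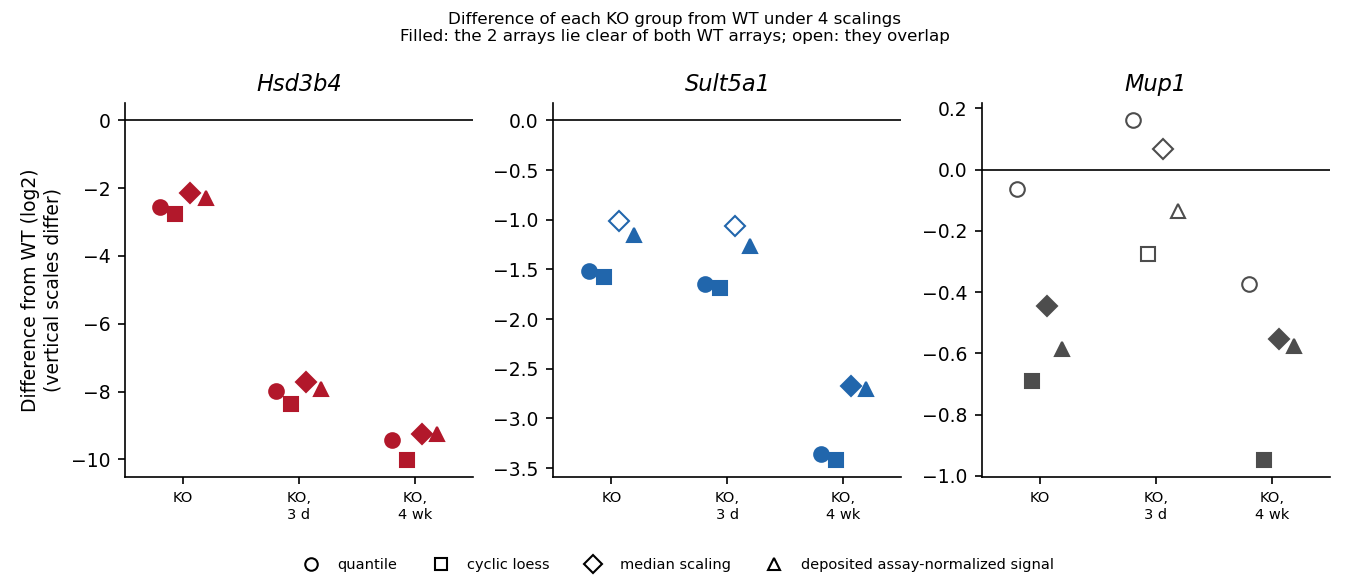
Difference from WT in log2 (vertical axis, scales differ between panels) of the 3 KO groups (horizontal axis) under quantile normalization, cyclic loess, median scaling and the deposited assay-normalized signal; filled symbols mark groups whose 2 arrays lie clear of both WT arrays. Hsd3b4 is filled throughout and spans -2.16 to -10.01, Sult5a1 overlaps WT in the KO and 3-day groups under median scaling, and Mup1 lies between -0.95 and 0.16.

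A ratio of 2 probes on the same array does not depend on scaling by a constant, so the enzymes were also set against Mup1 in raw signal, as a change from the WT mean. The log2 ratio of Hsd3b4 to Mup1 changed by 0.02 and -3.44 on the KO arrays and by -6.08 on the second 3-day array, with WT 0.38 to either side. On the 3 treated arrays that did not detect Hsd3b4 it is a bound: with the spot at 3 times its noise, the ratio was lower by at least 7.93 on the first 3-day array and by at least 8.11 and 6.96 on the 4-week arrays. In raw signal the first KO array was thus level with WT, and the second KO array lay above all treated arrays. After quantile normalization the ratio changed by -0.78 and -4.23 on the KO arrays, with WT 0.09 to either side. The first KO array then lay below WT. These values rest on Mup1 readings at the bright end of the arrays. For Sult5a1 the changes were -0.00 and -1.14 in KO, -1.96 and -0.31 after 3 days, and -2.50 and -1.75 after 4 weeks, with WT 0.89 to either side. In raw signal only the 4-week arrays and the first 3-day and second KO arrays lay outside the span of the WT arrays. After quantile normalization every KO array, treated or untreated, lay below that span. The changes then ran from -0.91 on the first KO array to -3.29 on the first 4-week array, with WT 0.59 to either side. Such a ratio shows unequal change of 2 probes and does not show which of them changed.

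Over the 8 arrays, Hsd3b4 and Sult5a1 had a Pearson correlation of 0.86, Hsd3b4 and Mup1 one of 0.12, and Sult5a1 and Mup1 one of 0.29. These are descriptions over arrays that share groups, depth and normalization, and the first follows from how the genes were chosen. For Hsd3b4 they include the 3 arrays that did not detect it.

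Among 160 other named genes, the 3 whose pattern was most like that of Hsd3b4 over the 8 arrays were Dio1 (Pearson r = 0.92), Teddm1a (0.90) and 4930433I11Rik (0.86). Dio1, the deiodinase that activates thyroid hormone in liver, lay at 14.35 and 14.81 log2 in WT, 12.13 and 12.75 in KO, 10.03 and 9.87 after 3 days, and 9.84 and 9.93 after 4 weeks. It was detected on all 8 arrays, and its 2 treated groups lay close together below KO. Teddm1a moved far less, from a mean of 9.06 ± 0.04 (SD, n = 2) in WT to 8.09 ± 0.03 after 4 weeks. Under median scaling the correlation of Teddm1a with Hsd3b4 was 0.66, and that of Dio1 was 0.91. The probe of 4930433I11Rik was detected on only 1 WT array and 1 3-day array, so its pattern rests mostly on values near the noise.

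For Sult5a1 the 3 most alike were Teddm1a (0.92), the zinc finger gene Zfp60 (0.89) and Hsd3b4 (0.86). Zfp60 was likewise detected on only 1 WT and 1 3-day array. The correlation of Teddm1a with Sult5a1 was 0.83 under median scaling and 0.815 in the deposited assay-normalized signal. For Mup1 the 3 most alike were Tcim (0.82), the tyrosine kinase gene Tnk1 (0.75) and the growth factor gene Mydgf (0.67). Tcim lay at 11.20 ± 0.33 (SD, n = 2) in WT, 11.09 ± 0.58 in KO, 11.25 ± 0.12 at 3 days and 9.89 ± 0.07 at 4 weeks. In each group the same array was the higher for Tcim and for Mup1. Tnk1 was detected on 1 3-day and 1 4-week array only. These likenesses depended on scaling. The correlation of Tcim was 0.53 under median scaling and 0.42 in the deposited assay-normalized signal, and that of Tnk1 0.65 under median scaling and 0.50 under cyclic loess. The correlation of Mydgf with Mup1 turned to -0.27 under median scaling and to -0.41 in the deposited assay-normalized signal.

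**Figure D4:**
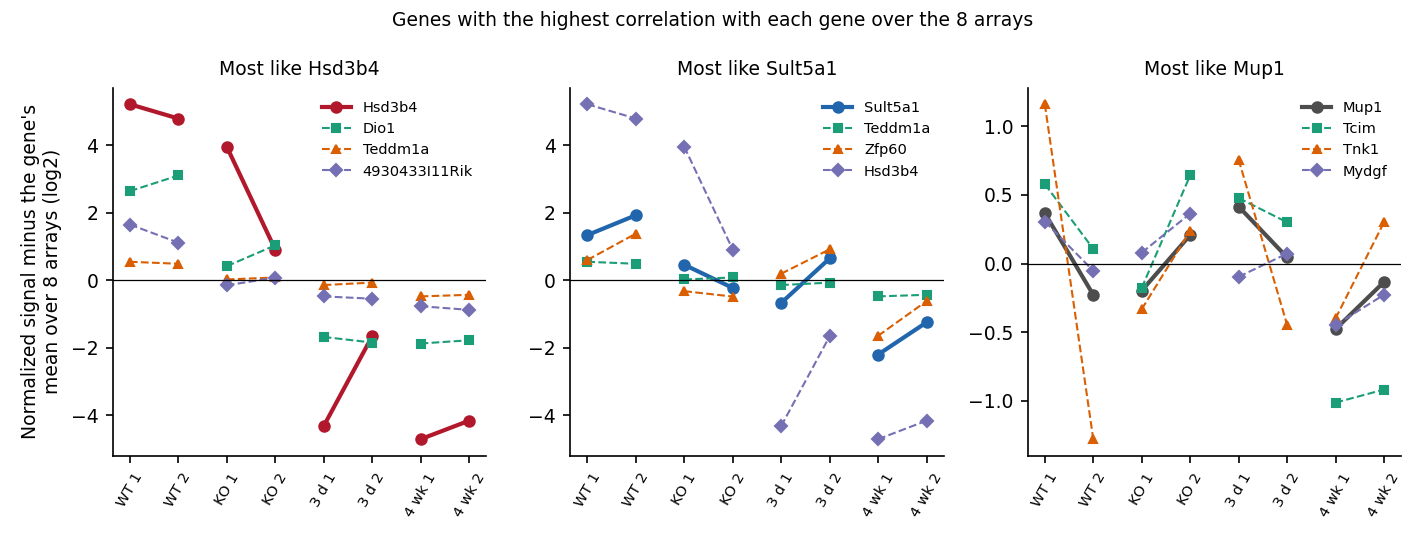
Normalized log2 signal minus each gene's mean over the 8 arrays (vertical axis) for Hsd3b4, Sult5a1 and Mup1 and the 3 named genes most correlated with each (colours), by array (horizontal axis); lines join the 2 arrays of a group. Dio1 follows Hsd3b4 with a smaller span, and the Mup1 panel spans far less than the Hsd3b4 panel.

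The families of these genes could be followed only through the genes themselves. RefSeq lists 7 Hsd3b genes, 6 of them on chromosome 3 with Hsd3b4, 21 Sult genes, of which Sult5a1 alone lies on chromosome 8 between Cpne7 and Dpep1, and 22 Mup genes, all on chromosome 4, where Mup1 lies between Mup9 and Mup10. The stems Hsd3b, Sult and Mup each had 1 named probe on the arrays, that of the gene described here. Hsd3b and Mup paralogs are near-identical in parts, and what share of a signal came from paralogs was not tested. The values of Hsd3b4 and Mup1 are uncertain to that extent.

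Other genes were taken from 10 pathway lists. They covered steroid enzymes, sulfation, other conjugation and oxidation enzymes, lipocalins, secreted proteins, sex-biased genes, transcription factors, intermediary metabolism, bile acid transport and stress. Of all listed genes other than the 3, 12 genes (13 probes) had a named, tested probe. These lists and the marker lists below were chosen with earlier results of these data known. Calls, p-values and counts for their genes are therefore a description and no independent test. By limma with Benjamini-Hochberg adjustment over all tested probes, 1 of the 13 probes fell and 0 rose in KO against WT, where 1.13% of all tested probes passed. Against WT, 2 fell and 1 rose after 3 days (5.78% of all tested probes passed), and 1 fell and 2 rose after 4 weeks (2.27% passed). Medians of the 13 differences were -0.53, 0.17 and -0.37 log2, beside 0.09, 0.07 and 0.09 over all tested probes.

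Against KO, limma called 0 of the 13 probes in either direction after 3 days or after 4 weeks. Of the 13, 5 and 6 had an unadjusted p under 0.05, and of all tested probes the smaller shares of 16.1% and 8.75% did. Over all tested probes 0.233% and 0.0478% passed these comparisons after adjustment, with medians of -0.03 and 0.02 log2. The medians of the 13 were 0.07 and 0.22. The lists hold too few named genes to speak for hepatocyte genes at large.

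Dio1 was lower than WT in all 3 comparisons: it fell by 2.15 ± 0.28 log2 (SE) in KO (adjusted p = 0.039, limma), it fell by 4.63 after 3 days (0.0063) and it fell by 4.70 after 4 weeks (0.0086). In the KO this call was lost in 12 of 15 alternative settings, with adjusted p up to 0.14. Fgf21, a fasting-induced liver hormone, fell by 5.22 ± 0.96 log2 (SE) after 3 days (adjusted p = 0.040, limma), from 12.58 and 9.98 in WT to 6.98 and 5.14, of which only the first was detected. Its differences in KO (-5.07, adjusted p = 0.073) and after 4 weeks (-4.84, 0.067) were nearly as large and did not pass. Neither KO array detected Fgf21, so its KO value is not a measured level, and after 4 weeks only 1 array did. The 3-day call was lost in 9 of 14 alternatives. Plin3, a coat protein of lipid droplets, rose by 1.92 ± 0.31 log2 (SE) after 3 days (adjusted p = 0.032, limma) and by 2.22 after 4 weeks (0.034). Aldh3a2, which oxidises fatty aldehydes, rose by 1.23 ± 0.20 log2 (SE) after 4 weeks (adjusted p = 0.044, limma). The Plin3 and Aldh3a2 calls were lost in 7 or 8 of 15 alternatives each.

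The steroid enzyme list held 1 other gene with a tested probe, Hsd17b10, a mitochondrial hydroxysteroid dehydrogenase. It lay at 14.45 ± 0.43 (SD, n = 2) in WT, 14.45 ± 0.12 in KO, 14.79 ± 0.06 at 3 days and 14.42 ± 0.32 at 4 weeks, and each KO group overlapped WT. On the list of sex-biased liver genes and their regulators, Stat5a differed from WT by -0.88, -0.89 and -0.71 log2 in the KO, 3-day and 4-week groups and Stat5b, which carries the growth hormone signal in hepatocytes, by -0.63, -0.75 and -0.37. Neither passed the test against WT, with adjusted p from 0.20 to 0.55 (limma). Cebpb, a transcription factor of the acute-phase response, was read by 2 probes that went the same way. They lay at 15.86 and 13.31 log2 in WT, 14.54 and 11.92 in KO, 15.99 and 13.48 after 3 days and 15.02 and 12.64 after 4 weeks, with no call in any comparison.

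G6pc, the enzyme that releases glucose from hepatocytes, lay at 15.95 ± 0.28 (SD, n = 2) in WT, 15.43 ± 0.11 in KO, 14.31 ± 0.54 at 3 days and 14.27 ± 0.46 at 4 weeks. Its group means ran in the order of those of Hsd3b4 in smaller steps, although the treated groups overlapped for both genes. Adjusted p against WT was 0.055 after 3 days and 0.075 after 4 weeks (limma). The other pathway genes with no call were Pemt, Gpbar1 and Jun. Their largest difference from WT was that of Jun after 3 days, 1.39 log2.

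Of 119 listed marker genes of liver cell types, 3 had a named, tested probe: 2 of 18 for cholangiocytes and 1 of 10 for erythroid cells. The cholangiocyte pair, Krt23 and Wfdc2, was not detected in WT and was detected on all 6 KO arrays. Some of these spots were near the limit of 3 times the noise: Krt23 at 3.16 and 3.20 after 4 weeks, and Wfdc2 at 3.32 on the second 3-day array. The summed normalized signal of the pair was 191 to 220 in WT, 2067 to 3234 in KO, 848 to 2090 after 3 days and 1461 to 1573 after 4 weeks. Since WT did not detect them, their folds take the WT spots at their own or the lowest detected signal. The bounds take those spots at 3 times their noise. Krt23 rose 20.6-fold in KO (adjusted p = 0.035, limma) and 8.26-fold after 3 days (0.038), with bounds of at least 4.36-fold and 1.74-fold. After 4 weeks Krt23 had no call against WT (adjusted p = 0.30, limma), and its bound was 0.46-fold, which does not place it above WT. Wfdc2 rose 5.21-fold after 3 days (adjusted p = 0.041, limma) and 11.1-fold after 4 weeks (0.027), with bounds of at least 1.11-fold and 2.37-fold. The pair parted after 4 weeks: Krt23 lay at 7.53 ± 0.33 log2 (SD, n = 2), -3.24 from KO, and Wfdc2 at 10.38 ± 0.04, 0.68 above KO. Neither difference from KO passed (adjusted p = 0.18 and 0.74, limma). These 4 calls were lost in 7 to 11 of 14 alternatives each. The sum was thus higher in the 3 groups with lower Hsd3b4 and Sult5a1. Among these its lowest value was on a 3-day array. Sult5a1 was lowest after 4 weeks, while Hsd3b4 had no measured order between 3 days and 4 weeks. The erythroid gene Hba-a1 ran from 73809 to 538388 in normalized signal in WT, 50558 to 62533 in KO, 12650 to 19351 after 3 days and 44225 to 44278 after 4 weeks. The part of these cell types in the enzyme values was not tested.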

How the data were processed

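Per the labels, liver RNA of 8 samples in 4 groups of 2 was hybridised to Applied Biosystems arrays of 1 colour. Per the file headers, each scanner file holds the signal, its noise, their ratio (signal over noise), flags and an assay-normalized signal. The signal is a linear intensity, used as deposited, and blank spots had a median of 0. Signal over noise is a score, as deposited by the authors. The deposited series table holds an intensity that equals the assay-normalized signal within 0.05, with no centring and no further scaling. Its column medians ran from 1.07 to 1.60. The image software is not given in the sources used here.

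Gene names came from RefSeq's table for GRCm38.p6, 311 by accession and 5 by synonym, giving 316 probes of 310 genes. The 27930 probes with a Celera identifier were counted and not named. Flags of 5000 or above removed 4153 probes. For the other 28859, log2 signals were quantile-normalized with no offset. A probe was tested if 2 or more arrays detected it, at signal over noise of at least 3 (16728 probes). Groups were compared with limma 3.58.1 in R 4.3.3 over all 8 arrays (4 residual and 1.96 prior degrees of freedom), two-sided, with Benjamini-Hochberg adjustment and a threshold of 0.05. The code was tested on simulated data. The 2 arrays per group limit the precision. For a group without any detecting array, the fold of Hsd3b4, Krt23 and Wfdc2 takes each dim array at its own or its lowest detected signal, whichever is higher. The bound takes each dim array at its own signal or at 3 times its spot noise, whichever is higher.

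The 3 genes and all lists were chosen with earlier results of these data known, so the 3 genes get no p-value. For the same reason, p-values of listed genes are a description. Besides them, the text names every listed gene with a tested, named probe and, for each of the 3, the 3 other named genes with the highest Pearson correlation over the arrays. Alternatives were median scaling, cyclic loess, the assay-normalized signal, flagged probes kept, other filters on dim probes, a replicate block, and leaving out each array. Replicate numbers share no more than a number: deviations of same-numbered arrays correlated at -0.04 to 0.03.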

Additional observations from a re-analysis of the deposited data

Results flagged for a closer look

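The positive control spots, which no comparison above uses, were brighter in every KO group. Their median signal on the dimmest of the 6 KO arrays was 2.96 times that on the brighter WT array, with 1691 and 2062 in WT and 6104 to 7913 on the KO arrays. It is given here as a signal outside the main measurement that lies above the control samples. It bears on the raw values of Hsd3b4, Sult5a1 and Mup1 against WT, since the 2 WT arrays stand apart in the same way in overall signal. Its part in the differences from WT was not tested.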

How the results depend on the processing

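The downward differences of Hsd3b4 and Sult5a1 from WT kept their direction under every alternative run, and so did those of Hsd3b4 from KO. Leaving out single arrays gave, for KO minus WT, 3 days minus WT, 4 weeks minus WT, 3 days minus KO and 4 weeks minus KO, ranges for Hsd3b4 of -4.11 to -1.04, -9.32 to -6.66, -9.67 to -9.10, -6.97 to -3.85 and -8.43 to -5.26 log2. For Sult5a1 they were -1.87 to -1.17, -2.30 to -0.98, -3.83 to -2.88, -0.79 to 0.53 and -2.32 to -1.37, and for Mup1 -0.38 to 0.22, -0.15 to 0.42, -0.69 to -0.07, 0.03 to 0.42 and -0.51 to -0.11. Other scalings moved some differences beyond the replicate spread. Under cyclic loess Hsd3b4 after 4 weeks was -10.01 from WT, and Mup1 was -0.69, -0.28 and -0.95 in the KO, 3-day and 4-week groups. Under median scaling Sult5a1 was -1.01 in KO and -2.68 after 4 weeks, Mup1 was -0.45 in KO, and its 3-day difference from KO was 0.51. In the assay-normalized signal Sult5a1 after 4 weeks was -2.70 from WT and Mup1 in KO -0.59, and the Mup1 difference between 4 weeks and KO turned to 0.01. The correlation of Mydgf with Mup1 turned to -0.27 and -0.41 under the latter scalings.

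Counts of tested probes that passed the limma test also depended on the setting. In the order above they were 189, 967, 379, 39 and 8. Without single arrays they ran from 1 to 1084, 3 to 1817, 0 to 1298, 0 to 43 and 0 to 16. Without the second WT array the first 3 were 1084, 1817 and 1298. Without either KO array KO minus WT gave 1, without either 3-day array its difference from WT gave 3, and without either 4-week array its difference from WT gave 0. With a replicate block they were 7, 261, 68, 0 and 0, and the labels do not say that the numbers pair the samples. With no filter on dim probes they were 9, 203, 40, 0 and 0, and with probes detected on all arrays 663, 1783, 801, 626 and 59. In the 18 cases with a count of 0, between 891 and 3355 probes had an unadjusted p under 0.05. Median scaling gave 303, 982, 90 and 43 in the comparisons other than 3 days minus WT, and the assay-normalized signal 331, 1322, 15 and 17. Cyclic loess gave 62 for KO minus WT and 214 for 4 weeks minus WT. The share of higher calls and the medians of all probes moved with scaling: median scaling shifted all tested probes by 0.48 log2 in KO and 0.61 after 4 weeks against WT, with 251 and 847 of the calls higher, beside 136 and 266 under quantile normalization.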
